A study of Sus scrofa with 6 samples.

Results

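Interferon-stimulated genes are the genes that cells switch on when they meet an interferon, and they are described here in pork loin of 2 pig breeds. A list of 39 such genes was looked up by symbol in a table of 25322 pig genes, and 34 had a row. No row carried the symbol IFITM3, IFI6, PARP9, BST2 or EPSTI1, so these 5 were not analysed by symbol. EIF2AK2 had 2 overlapping rows, of which the one with more counts was kept. Of the 34 genes, 32 passed a filter on low counts and were tested, and ISG20 and OASL did not.

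The tissue was longissimus dorsi, the long back muscle, from Wei pigs slaughtered at 90 kg (3 libraries) and from Yorkshire pigs (3 libraries). The Yorkshire animals were kept in a similar way, but the labels give no slaughter weight for them. Neither sex nor age is stated for either breed. The labels do not say that the libraries came from separate animals. Each p-value therefore reflects only how much these libraries varied, and that spread may be technical. Wei replicate 2 is an exception, as its Y chromosome rows held 6901 counts, against 9 and 14 in Wei replicates 1 and 3. By these counts the Wei libraries differed in sex and did not all come from the same animal. No animal is described as infected or treated, and the comparison of the breeds addresses which genes differ in loin muscle between them.

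Interferons are secreted proteins that warn tissue of viruses. Type I interferons (alpha, beta and their relatives) signal through JAK1 and TYK2 to a complex that holds STAT2 and IRF9 and binds the promoters of the genes described here. Interferon gamma, made mainly by T and NK cells, acts through a receptor of its own and is known as a strong inducer of the guanylate-binding proteins and of IRF1. The products block viral entry, translation and replication, sense viral RNA, or damp the response. Muscle fibres, like most cells, can mount this response, and uninfected tissue usually holds low levels of these transcripts.

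Total gene counts ranged from 15285197 to 22570075 in Wei libraries and from 17876646 to 27096747 in Yorkshire libraries. Levels are given as CPM, counts scaled to library size after TMM normalisation, when 1 gene is followed across libraries, and as the deposited FPKM, which also corrects for length, when genes are compared. The 11 skeletal muscle markers with a row, of 14 looked for, averaged between 12.1 and 12.4 log2 CPM in every library, and ACTA1, the muscle actin, took 3.77% to 7.97% of the counts of a Wei library and 7.88% to 8.76% of a Yorkshire library. Yorkshire replicate 3 stood apart in markers of immune cells, with values given further on. Wei replicate 2 stood apart in having 6901 counts over 13 rows of the Y chromosome, against at most 14 in any other library.

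The interferon-stimulated genes were expressed at a low level in both breeds and none passed the test between them. In bulk tissue, fewer cells of a type and less RNA per cell cannot be told apart. Mean FPKM over the 6 libraries ran from 0.20 (DHX58) to 6.29 (GBP1) among the 32 tested genes, with a median of 1.97, against a median of 4.09 over all 13209 genes tested. By edgeR's quasi-likelihood test with Benjamini-Hochberg adjustment over all genes, 0 of 32 had an adjusted p under 0.05, where 5.08% of all genes did (2.35% lower and 2.73% higher in Wei). The smallest adjusted p was that of HERC6 (0.0546). DESeq2 called 3 of the 32, HERC6, IFIT5 and STAT2, all lower in Wei, where 9.78% of all genes were called and 4.38% of all genes were called lower. Limma voom called 0 of the 32, where 4.88% of all genes were called and 2.13% of all genes were called lower. Without a count filter edgeR called HERC6 alone (adjusted p = 0.0414), where 4.39% of all genes were called. It called none of the 32 with RLE size factors (5.15% of all genes), library size alone (3.53%) or a 1 CPM filter (5.67%), and HERC6 alone with the replicate number as a block (3.61%).

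Without adjustment, 9 of the 32 genes had a p under 0.05 in edgeR's quasi-likelihood test, all of them lower in Wei: GBP1, GBP2, IFIT3, IFIT5, STAT2, HERC6, PARP14, IFI44 and SAMD9. The share of all genes with such a p was 11.8% in this direction and 11.4% in the other, where no interferon-stimulated gene stood, and 23.3% in either. The count of 9 depended on which library was left out, and every gene counted was lower in Wei. Without Wei replicate 2 it was 3, where 1436 of 13709 genes had such a p and were lower in Wei. It was 5 without Wei replicate 3 (1468 of 13296) and 3 without Yorkshire replicate 3 (1226 of 13184). With Wei replicate 2 and Yorkshire replicate 3 both left out it was 3 (1177 of 13230). It did not fall without Wei replicate 1 (11, where 1334 of 13660 genes did). Nor did it fall without Yorkshire replicate 1 (9, where 1492 of 13312 did) or Yorkshire replicate 2 (10, where 1320 of 13695 did). The log2 fold change was below 0 for 27 of the 32, against 52.2% of all genes. Its median was -0.54 over the 32 and -0.02 over all genes, and its range ran from -2.45 (GBP1) to 0.35 (USP18). In 5 of the 32 genes every Wei library lay below every Yorkshire library (IFIT3, IFIT5, STAT2, HERC6 and PARP14), or 15.6%, and 15.3% of all genes did so. None of the 32 had every Wei library above every Yorkshire library, where 14.3% of all genes did (29.6% in either direction).

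Single libraries carried much of this lean. Mean log2 CPM over the 32 genes was 2.15, 1.10 and 1.95 in Wei replicates 1 to 3, against 2.23, 1.95 and 2.82 in Yorkshire replicates 1 to 3. Wei replicate 2 was the lowest library and Yorkshire replicate 3 the highest, while the other 4, from both breeds, lay between 1.95 and 2.23. Over the same libraries the mean of all genes tested stayed between 3.11 and 3.22. Wei replicate 2 was the lowest of the 6 for 23 of the 32 genes, where it was lowest for 17.8% of all genes. Yorkshire replicate 3 was the highest for 22 of the 32, where it was highest for 19.1% of all genes.

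**Figure D1:**
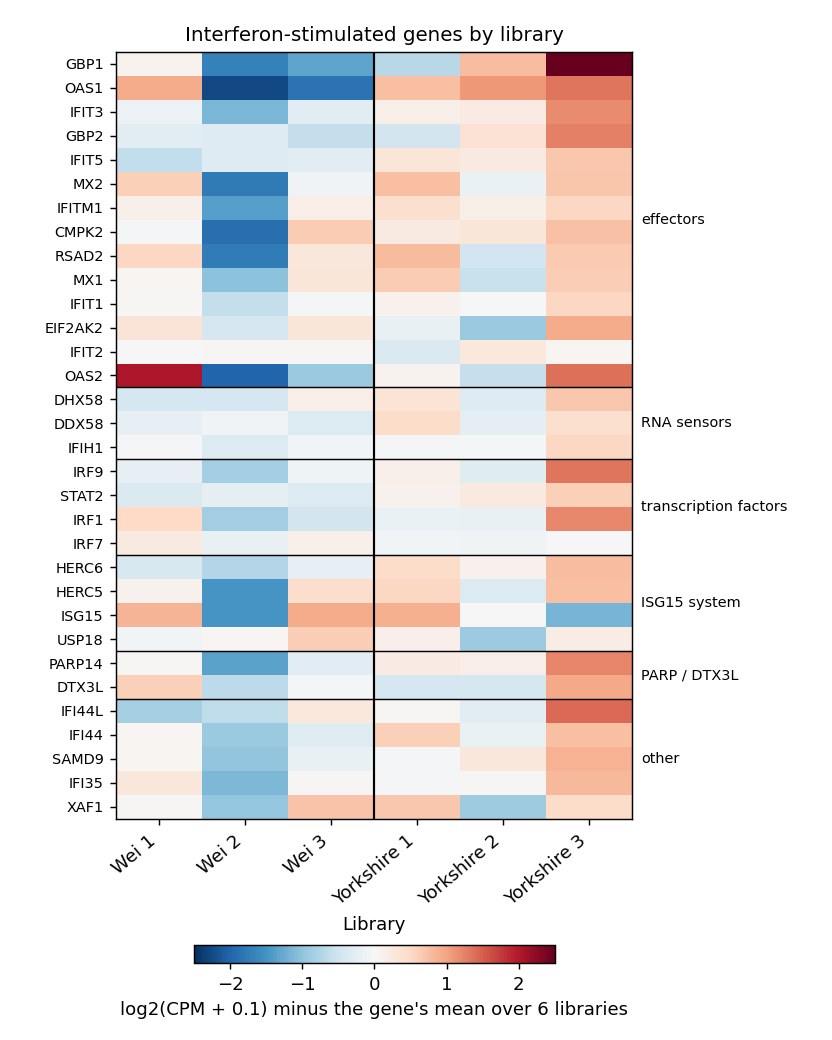
Level of each of the 32 tested genes (rows, grouped by role) in each library (columns, Wei left of the line and Yorkshire right), as log2(CPM + 0.1) minus the gene's mean over the 6 libraries, with the colour scale stopping at 2.5 in either direction. The column of Wei replicate 2 is mostly blue (lowest library for 23 genes) and that of Yorkshire replicate 3 mostly red (highest for 22), and OAS2 is highest in Wei replicate 1.

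The genes also varied more within a breed than most genes did. The median within-breed SD of log2 CPM was 0.65 over the 32 genes and 0.25 over all genes tested, and 91.7% of all genes had a smaller SD than the first of these values. The 32 had a lower median FPKM than all genes tested, and the part of counting error in their SD was not tested. Relative to the mean of the other Yorkshire libraries, the median level of the 32 in Yorkshire replicate 3 was 1.41-fold, from 0.28-fold (ISG15) to 6.2-fold (GBP1), against 0.99-fold for all genes. Relative to the mean of the other Wei libraries, the median in Wei replicate 2 was 0.51-fold, from 0.11-fold (OAS2) to 1.14-fold (DDX58), against 0.995-fold for all genes.

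With Wei replicate 2 left out, 24 of 32 genes had a log2 fold change below 0 and the median was -0.23. With Yorkshire replicate 3 left out, 25 did and the median was -0.28. With both left out, 18 of 32 did, where 50.6% of all genes did, and the median was -0.05. These libraries were left out together because they stood lowest and highest in earlier results of these data, which by construction draws the breeds together. Without any other single library, 28 of 32 genes were below 0 and the median lay between -0.54 and -0.76. The share of all genes called was 2.87% without Wei replicate 2, 1.81% without Wei replicate 3, 2.07% without Yorkshire replicate 1, 0.438% without Yorkshire replicate 2, 1.25% without Yorkshire replicate 3 and 1.1% without both libraries that stood apart, and 0 of the 32 were called in each of these fits.

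**Figure D2:**
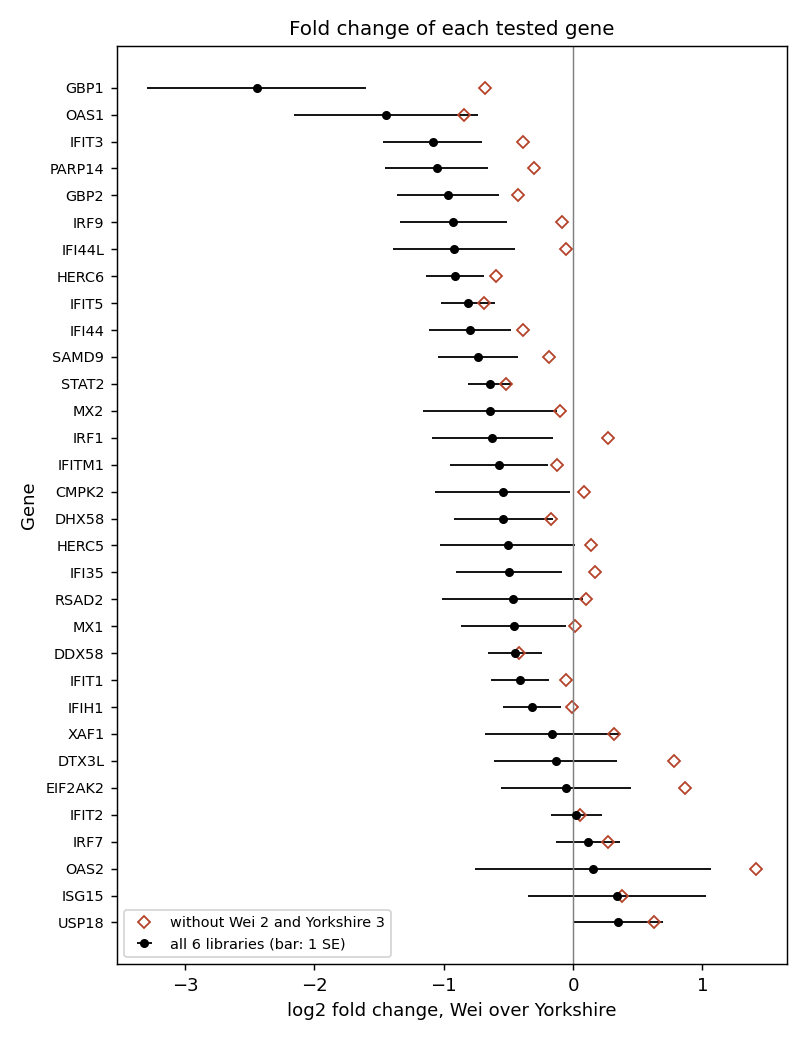
Log2 fold change of each tested gene, Wei over Yorkshire (horizontal axis), with all 6 libraries (black points, bars of 1 SE) and without Wei replicate 2 and Yorkshire replicate 3 (open diamonds). With all libraries 27 of 32 points lie left of 0; without those libraries 18 diamonds do, and the median is -0.05.

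Of the transcription factors that carry the signal, STAT2 had little spread among the Wei libraries and did not pass edgeR's test. STAT2 (ENSSSCG00000000396, chromosome 5, 23280621 to 23294700 in Sscrofa10.2) stood at 8.64, 9.49 and 8.81 CPM in Wei replicates 1 to 3, against 12, 13.2 and 16.8 CPM in Yorkshire replicates 1 to 3. Each Wei value was below each Yorkshire value. STAT2 had a log2 fold change of -0.64 ± 0.17 (SE). Its adjusted p was 0.0691 by edgeR's quasi-likelihood test and 0.0399 by DESeq2, and between 0.0399 and 0.225 over the alternatives. The difference was -0.52 on the log2 scale without Wei replicate 2 and Yorkshire replicate 3.

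The partner of STAT2, IRF9, which gives the complex its DNA binding, set 1 library apart. IRF9 stood at 7.34, 4.62 and 7.78 CPM in Wei replicates, against 9.26, 6.80 and 21.4 CPM in Yorkshire replicates, and the breeds overlapped. Its log2 fold change was -0.92 ± 0.41 with all libraries and -0.08 without Wei replicate 2 and Yorkshire replicate 3. IRF1, a factor that responds strongly to interferon gamma, stood at 9.23, 3.51 and 4.70 CPM in Wei replicates, against 5.78, 5.75 and 15.2 CPM in Yorkshire replicates. Yorkshire replicate 3 was again the highest, but Wei replicate 1 exceeded both other Yorkshire libraries, and the log2 fold change of -0.63 ± 0.47 became 0.02 without Yorkshire replicate 3. IRF7, which amplifies type I interferon production, lay between 1.76 and 2.37 CPM in Wei and between 1.88 and 2.04 CPM in Yorkshire, with a log2 fold change of 0.12 ± 0.25, which was 0.27 without Wei replicate 2 and Yorkshire replicate 3. The row of IRF7 overlaps that of PHRF1, which had 3881 counts. Reads from the stretch they share may not be told apart unless counting used strand, which is not stated. Whether their exons overlap was not tested.

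The cytoplasmic RNA sensors were among the steadier members. DDX58, the gene of RIG-I, stood at 9.82, 10.7 and 8.96 CPM in Wei replicates, against 15.6, 9.51 and 15 CPM in Yorkshire replicates. IFIH1, the gene of MDA5, which senses long double-stranded RNA, stood at 4.61, 3.71 and 4.45 CPM in Wei replicates, against 4.57, 4.59 and 6.74 CPM in Yorkshire replicates. Both sets of values overlapped between the breeds, with log2 fold changes of -0.45 ± 0.21 for DDX58 and -0.32 ± 0.22 for IFIH1. DDX58 kept -0.42 without Wei replicate 2 and Yorkshire replicate 3, while IFIH1 came to -0.01. DHX58, the gene of LGP2, a regulator of the other two sensors, had 138 counts in all and a log2 fold change of -0.54 ± 0.38, which was -0.17 without Wei replicate 2 and Yorkshire replicate 3.

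The IFIT genes encode proteins that bind foreign RNA and block its translation. They lie in a row on chromosome 14 (110179712 to 110252240), in the order IFIT2, IFIT3, IFIT1 and IFIT5, with gaps of 12.7 to 18.9 kb. IFIT5 stood at 3.25, 4.03 and 4.21 CPM in Wei replicates, against 6.21, 5.92 and 8.05 CPM in Yorkshire replicates. Each Wei value was below each Yorkshire value, and Wei replicate 2 was not the lowest. The log2 fold change of IFIT5 was -0.81 ± 0.21, and -0.69 without Wei replicate 2 and Yorkshire replicate 3. Its adjusted p was 0.0612 by edgeR's quasi-likelihood test and 0.031 by DESeq2, and between 0.031 and 0.21 over the alternatives.

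The row named IFIT3 stood at 2.54, 1.24 and 2.35 CPM in Wei replicates, against 3.17, 3.26 and 6.59 CPM in Yorkshire replicates, also without overlap. Its log2 fold change of -1.08 ± 0.38 became -0.39 without Wei replicate 2 and Yorkshire replicate 3. IFIT1 lay between 5.14 and 7.99 CPM in Wei and between 7.85 and 11.3 CPM in Yorkshire, with a log2 fold change of -0.41 ± 0.23, which was -0.06 without Wei replicate 2 and Yorkshire replicate 3. IFIT2 was the flattest of the 4, at 6.63, 6.70 and 6.75 CPM in Wei replicates, against 5.08, 7.91 and 6.78 CPM in Yorkshire replicates, a log2 fold change of 0.03 ± 0.20. Neighbours in this cluster thus had unlike values. The genes are similar in sequence and the name table used here gives the symbol IFIT1 to the row named IFIT3, so reads and names could be exchanged between them.

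The oligoadenylate synthetases, which activate an RNase when they bind double-stranded RNA, had the widest ranges over the 6 libraries after GBP1. OAS2 (chromosome 14, 41196286 to 41208970) stood at 42.7, 2.54 and 5.38 CPM in Wei replicates, against 11, 6.91 and 27.2 CPM in Yorkshire replicates. Wei replicate 1 was the highest library and the other Wei libraries the lowest. OAS2 had a log2 fold change of 0.15 ± 0.91, which was -1.91 without Wei replicate 1 and 1.42 without Wei replicate 2 and Yorkshire replicate 3.

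OAS1, 51.6 kb from OAS2, stood at 7.28, 0.72 and 0.98 CPM in Wei replicates, against 6.45, 8.19 and 9.69 CPM in Yorkshire replicates. Wei replicate 1 lay within the Yorkshire range, and the other Wei libraries, with 11 and 20 counts, lay far below it. OAS1 had a log2 fold change of -1.44 ± 0.71 (adjusted p = 0.262, edgeR's quasi-likelihood test). Without Wei replicate 1 it was -3.23 (adjusted p = 0.0109), in a fit that called 1.58% of all genes, and over the alternatives the adjusted p lay between 0.0109 and 0.583. The row overlaps that of SLC8B1, which had 229 counts. OAS1 and OAS2 were thus both high in Wei replicate 1, but only OAS2 exceeded the Yorkshire values there. OASL, a relative that enhances RIG-I signalling in human cells, had 0 counts in the Wei libraries and 6 in all Yorkshire libraries, which the filter removed.

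Guanylate-binding proteins are GTPases that attack intracellular microbes, and with all 6 libraries GBP1 had the largest log2 fold change of the 32 genes in edgeR's fit. That of OAS1 was larger in limma voom (-2.20, against -1.97 for GBP1), without Wei replicate 1 (-3.23, against -3.17) and without Yorkshire replicate 3 (-1.29, against -0.98), and, without that library and Wei replicate 2, it was -0.84 against -0.68. GBP1 (ENSSSCG00000006924, chromosome 4, 139650958 to 139667272) stood at 17.2, 4.94 and 6.41 CPM in Wei replicates, against 9.93, 27.9 and 117 CPM in Yorkshire replicates. Yorkshire replicate 3 alone held 3215 of its 4470 counts, and Yorkshire replicate 1 fell within the Wei range. GBP1 had a log2 fold change of -2.45 ± 0.84 (adjusted p = 0.128, edgeR's quasi-likelihood test), and of -0.98 without Yorkshire replicate 3. GBP2, 17.1 kb away, stood at 4.56, 4.36 and 3.57 CPM in Wei replicates, against 3.95, 7.08 and 13.3 CPM in Yorkshire replicates. Its libraries took the same order within Yorkshire as those of GBP1, at a smaller scale, and its log2 fold change was -0.97 ± 0.40, which was -0.40 without Yorkshire replicate 3. The genes belong to a family of similar genes, so their reads could be split between them.

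**Figure D3:**
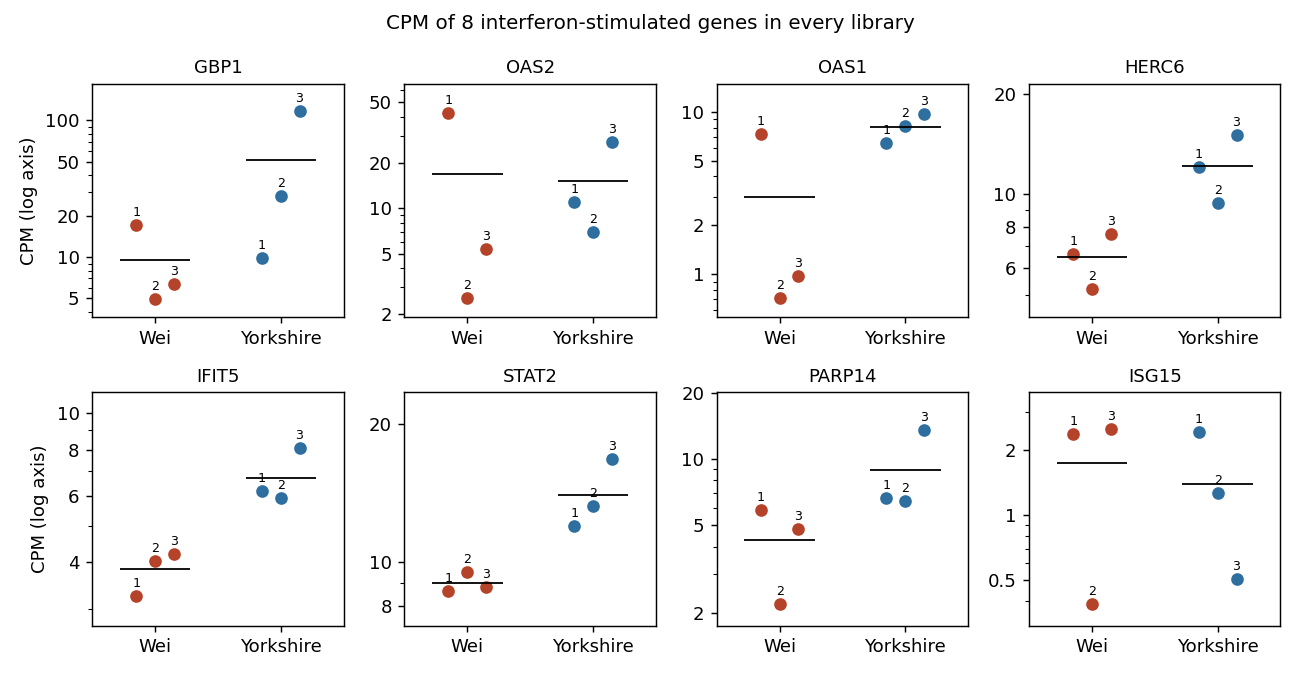
CPM (log axis) of 8 genes in every library, numbered by replicate, with the mean of each breed as a line; Wei is left and Yorkshire right in each panel. HERC6, IFIT5, STAT2 and PARP14 do not overlap between breeds, whereas GBP1 rests on Yorkshire replicate 3 (117 CPM) and OAS2 on Wei replicate 1 (42.7 CPM).

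MX1, MX2, RSAD2 and CMPK2 are classic targets of type I interferon. MX1 and MX2 encode dynamin-like GTPases that trap viral components, RSAD2 encodes viperin, which makes a chain-terminating nucleotide, and CMPK2 supplies a nucleotide kinase for that reaction. All 4 were lowest in Wei replicate 2 and overlapped between breeds otherwise. CMPK2, named for its wide range, stood at 1.89, 0.46 and 3.08 CPM in Wei replicates, against 2.31, 2.43 and 3.32 CPM in Yorkshire replicates. RSAD2, 5 kb from CMPK2 on chromosome 3, stood at 3.19, 0.59 and 2.69 CPM in Wei replicates, against 3.87, 1.55 and 3.53 CPM in Yorkshire replicates. MX1 stood at 4.50, 2.08 and 5.38 CPM in Wei replicates, against 6.80, 2.93 and 6.70 CPM in Yorkshire replicates. In RSAD2 and MX1, Yorkshire replicate 2 was also below the other Wei libraries, and Yorkshire replicate 3 was no higher than replicate 1. The log2 fold changes of the 4 lay between -0.64 (MX2) and -0.46 (MX1), and between -0.10 (MX2) and 0.10 (RSAD2) without Wei replicate 2 and Yorkshire replicate 3. MX1, RSAD2 and MX2 were described in this detail after their values were seen.

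Among the remaining effectors, EIF2AK2, the gene of the kinase PKR that stops translation, had a log2 fold change of -0.06 ± 0.50, which was 0.87 without Wei replicate 2 and Yorkshire replicate 3. Its 180 counts, and those of the overlapping row with the same symbol, are uncertain. IFITM1, a membrane protein that hinders viral entry, had one of -0.57 ± 0.38, which was -0.12 without them, and its row spans 111291 bp and 10 other rows. ISG20, an exonuclease of RNA, had between 0 and 8 counts in a library and was not tested.

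The ISG15 system attaches the ubiquitin-like protein ISG15 to other proteins. HERC5 is its ligase in human cells, HERC6 is known for that role in mouse, and USP18 removes ISG15 and blocks the type I receptor. HERC6 (unplaced scaffold GL892728.1, 2197 to 17710) stood at 6.63, 5.2 and 7.59 CPM in Wei replicates, against 12.1, 9.40 and 15.1 CPM in Yorkshire replicates. Each Wei value was below each Yorkshire value. HERC6 had a log2 fold change of -0.92 ± 0.22, and of -0.59 without Wei replicate 2 and Yorkshire replicate 3. Its adjusted p was 0.0546 by edgeR's quasi-likelihood test and 0.00966 by DESeq2, and between 0.00966 and 0.231 over the alternatives.

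The modifier itself had another pattern. ISG15 (unplaced scaffold GL895967.2, 58449 to 59139) stood at 2.37, 0.39 and 2.5 CPM in Wei replicates, against 2.42, 1.27 and 0.51 CPM in Yorkshire replicates. Its lowest Yorkshire library was replicate 3, the highest for most of the 32 genes, with 14 counts against 62 in replicate 1. ISG15 had a log2 fold change of 0.34 ± 0.69. HERC5 lay between 0.33 and 1.52 CPM in Wei and between 0.83 and 1.89 CPM in Yorkshire. USP18 lay between 2.66 and 4.31 CPM in Wei and between 1.44 and 3.17 CPM in Yorkshire, with the highest log2 fold change of the 32 genes over all 6 libraries, 0.35 ± 0.34. Without Wei replicate 2 and Yorkshire replicate 3 it was 0.62, and those of HERC5, -0.51 ± 0.52 with all libraries, and ISG15 were 0.14 and 0.38. HERC6 thus did not overlap between the breeds, while ISG15, HERC5 and USP18 did.

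PARP14 and DTX3L, an ADP-ribosyltransferase and a ubiquitin ligase that act in interferon signalling, lie 89.6 kb apart on chromosome 13. PARP14 stood at 5.86, 2.21 and 4.80 CPM in Wei replicates, against 6.68, 6.47 and 13.6 CPM in Yorkshire replicates. DTX3L stood at 3.37, 1.37 and 2.15 CPM in Wei replicates, against 1.60, 1.60 and 4.30 CPM in Yorkshire replicates. Both were lowest in Wei replicate 2 and highest in Yorkshire replicate 3, but only PARP14 had no overlap. PARP14 had a log2 fold change of -1.05 ± 0.40, and -0.30 without those libraries. That of DTX3L was -0.13 ± 0.47, and 0.78 without them.

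The 5 genes with less settled roles had log2 fold changes below 0, and none passed edgeR's test. IFI44L stood at 5.09, 5.79 and 11 CPM in Wei replicates, against 9.26, 7.52 and 24.5 CPM in Yorkshire replicates. SAMD9, an antiviral factor that restricts poxviruses in human cells, stood at 10.5, 5.07 and 8.96 CPM in Wei replicates, against 9.89, 12.3 and 18.7 CPM in Yorkshire replicates. IFI44, 9.9 kb from IFI44L, stood at 4.44, 2.21 and 3.47 CPM in Wei replicates, against 6.49, 3.82 and 7.25 CPM in Yorkshire replicates. In all 3 genes 1 or more Wei libraries reached into the Yorkshire range, and Yorkshire replicate 3 was the highest. Their log2 fold changes were -0.92 ± 0.47 (IFI44L), -0.73 ± 0.31 (SAMD9) and -0.80 ± 0.32 (IFI44), and -0.05, -0.18 and -0.39 without Wei replicate 2 and Yorkshire replicate 3. IFI35 and XAF1, of which XAF1 promotes cell death, had log2 fold changes of -0.50 ± 0.41 and -0.16 ± 0.52, which turned to 0.17 and 0.31 without Wei replicate 2 and Yorkshire replicate 3.

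Interferon transcripts themselves were close to absent at this depth. The table held 32 rows named as interferon genes, and 31 had 0 counts in every library, the exception being interferon gamma. IFNG had 0 counts in each Wei library, against 1, 3 and 4 counts in Yorkshire replicates 1 to 3. A count of 0 allows up to 3 counts, or between 0.147 and 0.195 CPM in a Wei library on the TMM scale, so these counts settle no difference. The floor covers counting error only. Without a count filter edgeR gave IFNG a log2 fold change of -4.30 and did not call it. Its unadjusted p there was under 0.05, as for 1823 of 18545 genes in this direction.

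The receptors and kinases that interferons act through were present in both breeds, and 0 of 6 passed edgeR's test, 0 of them at an unadjusted p under 0.05 either (10 were looked for). IFNAR2, a chain of the type I receptor, lay between 0.29 and 1.18 CPM in Wei and between 0.70 and 1.46 CPM in Yorkshire. Its log2 fold change was -0.63 ± 0.53, and -0.13 without Wei replicate 2 and Yorkshire replicate 3.

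Of 14 tested genes of nucleic acid sensing (18 looked for), none passed edgeR's test, and 4 had an unadjusted p under 0.05, 2 in each direction. That is 4 of 14, where 23.3% of all genes had such a p. MAVS, the mitochondrial adaptor of RIG-I and MDA5, stood at 71.5, 132 and 66.7 CPM in Wei replicates, against 54.7, 55.0 and 47.1 CPM in Yorkshire replicates. All Wei values were above all Yorkshire values, with a log2 fold change of 0.78 ± 0.25, which was 0.41 without Wei replicate 2. Its adjusted p was 0.109 by edgeR's quasi-likelihood test and 0.0315 by DESeq2, and between 0.0315 and 0.312 over the alternatives. TMEM173, the gene of STING, the adaptor of DNA sensing, stood at 2.31, 1.89 and 2.94 CPM in Wei replicates, against 4.38, 3.32 and 4.15 CPM in Yorkshire replicates, with a log2 fold change of -0.73 ± 0.24. MAVS and TMEM173 thus lay on opposite sides, neither past the threshold in edgeR. Of the 14 genes, 11 had a log2 fold change below 0, where 52.2% of all genes did.

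Among 12 tested negative regulators (16 looked for), 1 passed edgeR's test, where 5.08% of all genes did and 2.35% did so lower in Wei. TRIM21, a cytosolic antibody receptor and ubiquitin ligase that is itself induced by interferon, fell in Wei: it stood at 1.48, 0.98 and 1.42 CPM in Wei replicates, against 3.32, 2.60 and 5.14 CPM in Yorkshire replicates. TRIM21 had a log2 fold change of -1.51 ± 0.33 (adjusted p = 0.0404, edgeR's quasi-likelihood test). It missed the threshold without any 1 of the 6 libraries, with adjusted p from 0.0704 to 0.104, and in limma voom (adjusted p = 0.0545), while DESeq2 called it (adjusted p = 0.0038). Without Wei replicate 2 and Yorkshire replicate 3 the log2 fold change of TRIM21 was -1.03. The rest of the list did not share its direction. At an unadjusted p under 0.05, 1 of the 12 was lower in Wei (11.8% of all genes) and 3 were higher (11.4%). In 3 genes every Wei library lay above every Yorkshire library (14.3% of all genes). The median log2 fold change was -0.04, and 7 of the 12 were below 0, where 52.2% of all genes were.

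A further list of 36 interferon targets outside the 39 had 22 tested genes, of which 0 passed edgeR's test (5.08% of all genes). At an unadjusted p under 0.05, 2 were lower in Wei (11.8% of all genes) and 0 higher (11.4%). DESeq2 called IFI30 alone, where it called 9.78% of all genes. The median log2 fold change was -0.65, 19 of 22 were below 0, and Yorkshire replicate 3 was the highest library for 18. Over all genes 52.2% were below 0, and that library was the highest for 19.1%. Without Yorkshire replicate 3, 11 of 21 were below 0 and the median was -0.10. IFI30, a lysosomal reductase of antigen processing, stood at 2.90, 3.38 and 3.18 CPM in Wei replicates, against 4.06, 5.31 and 12.8 CPM in Yorkshire replicates. ZC3HAV1, an antiviral RNA-binding protein, stood at 4.56, 7.09 and 8.52 CPM in Wei replicates, against 8.91, 10.23 and 12.8 CPM in Yorkshire replicates. Neither gene overlapped between breeds, with log2 fold changes of -1.24 ± 0.41 for IFI30, which was -0.56 without Yorkshire replicate 3, and -0.66 ± 0.25 for ZC3HAV1.

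The chemokines of this list were named after their values were seen, and CXCL9 and CXCL10 followed single libraries. CXCL9, induced mainly by interferon gamma, stood at 4.56, 2.34 and 1.52 CPM in Wei replicates, against 1.17, 4.20 and 25.9 CPM in Yorkshire replicates. CXCL10 stood at 8.87, 0.85 and 1.03 CPM in Wei replicates, against 1.76, 2.65 and 14.3 CPM in Yorkshire replicates. Both were highest in Yorkshire replicate 3, and CXCL10, like OAS2 and OAS1, was much higher in Wei replicate 1 than in the other Wei libraries. CXCL11 stood at 0.47, 0 and 0.15 CPM in Wei replicates, against 0.12, 0.83 and 1.68 CPM in Yorkshire replicates. Its log2 fold change was -2.05 ± 1.04, and Yorkshire replicates 2 and 3 lay above every Wei library.

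Markers of T and NK cells and of macrophages were highest in the same Yorkshire library as most of the interferon-stimulated genes. Of 16 T and NK cell markers 15 had a row and 9 were tested. All 9 were highest in Yorkshire replicate 3, and the summed level of the 15 was 6.21, 7.41 and 5.58 CPM in Wei replicates, against 10.1, 11 and 40.2 CPM in Yorkshire replicates. None passed edgeR's test, and 7 had an unadjusted p under 0.05, all lower in Wei, where 11.8% of all genes did. Without Yorkshire replicate 3, 2 of 8 had such a p, where 1226 of 13184 genes did. In that fit 7 of the 8 had a log2 fold change below 0 (6626 of the 13184 genes), and the median was -0.73. With all libraries, 6 of the 9 had every Wei library below every Yorkshire library, where 15.3% of all genes did. CD4 was at 0.30 to 0.39 CPM in Wei and 0.74 to 2.22 CPM in Yorkshire, and PRF1, a killer cell protein, at 0.20 to 0.30 CPM in Wei and 0.50 to 0.98 CPM in Yorkshire. Both passed the count filter only through the Yorkshire libraries, with 5, 6 and 8 counts (CD4) and 5, 4 and 4 counts (PRF1) in Wei replicates. Passing in that way favours a lower level in Wei, so their p-values and lack of overlap cannot show a breed difference. Both are among the 6 and the 7 genes counted above.

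Of 14 macrophage markers 13 had a row, and the 11 tested were also all highest in Yorkshire replicate 3. Their sum over the 13 was 48.5 to 56.2 CPM in the Wei libraries, against 45.7, 54.0 and 187 CPM in Yorkshire replicates 1 to 3. C1QB, a complement subunit, was at 3.12 to 3.73 CPM in Wei and 5.31 to 15.3 CPM in Yorkshire, and LYZ, lysozyme, at 0.33 to 0.64 CPM in Wei and 0.63 to 7.72 CPM in Yorkshire. None of the 11 passed edgeR's test (5.08% of all genes), and these 2 had an unadjusted p under 0.05, lower in Wei (11.8%). DESeq2 called C1QB (adjusted p = 0.00636) and LYZ (adjusted p = 0.0198), where 4.38% of all genes were called lower. Without a count filter edgeR called C1QB (adjusted p = 0.045), where 4.39% of all genes were called. All 11 had a log2 fold change below 0 with all libraries (52.2% of all genes), and 6 did without Yorkshire replicate 3 (6626 of 13184 genes). CD163 was at 0 in 5 of 6 libraries. Neither immune list was low in Wei replicate 2, the library in which most interferon-stimulated genes were lowest: both sums there were the highest of the 3 Wei libraries.

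**Figure D4:**
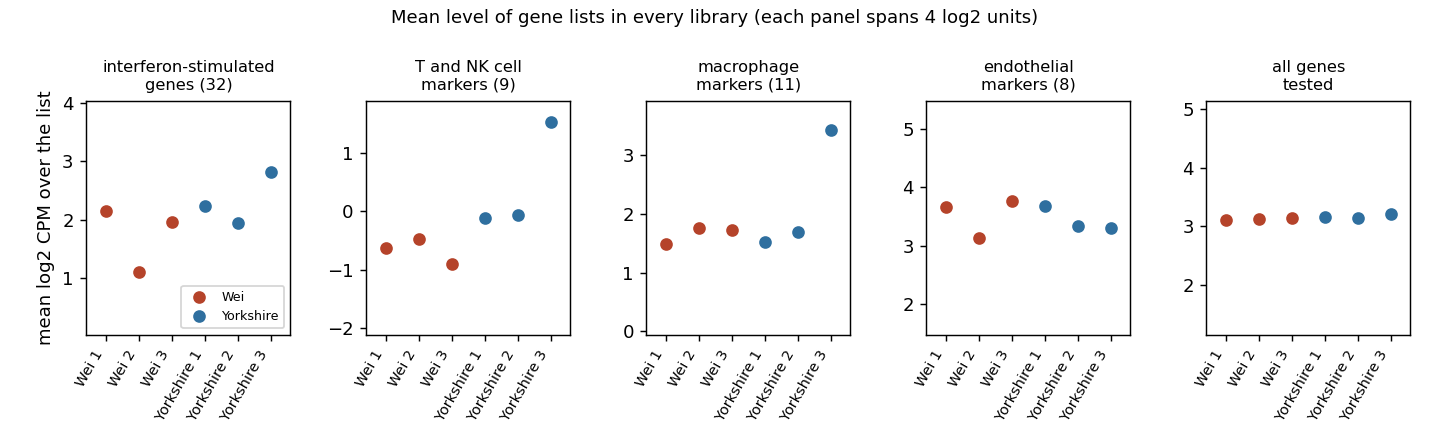
Mean log2 CPM (vertical axis, each panel spanning 4 log2 units) of the 32 interferon-stimulated genes, 3 lists of cell type markers and all genes tested, in each library; Wei libraries come first in each panel. Yorkshire replicate 3 is the highest library of the interferon, T and NK cell and macrophage panels, and Wei replicate 2 is the lowest of the interferon panel (1.10) and the endothelial panel (3.13) but not of the immune panels.

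Other cell types were less marked. B and plasma cell markers (8 of 9 with a row) summed to 5.27 to 10.4 CPM in Wei and 4.20 to 10.1 CPM in Yorkshire, most of it JCHAIN, with PAX5 at 0 in 5 of 6 libraries. Neutrophil markers (6 of 7 with a row) summed to at most 0.65 CPM in Wei and 0.87 CPM in Yorkshire, with MPO at 0 in each library. Markers of plasmacytoid dendritic cells, which make type I interferon, summed to 6.80 to 11.1 CPM in Wei and 6.42 to 9.25 CPM in Yorkshire over 4 of 7, most of it TCF4, which other cells express too. Endothelial markers (8 of 10 with a row) averaged 3.66, 3.13 and 3.77 log2 CPM in Wei replicates, against 3.68, 3.34 and 3.30 log2 CPM in Yorkshire replicates, and 5 of the 8 were lowest in Wei replicate 2. PECAM1 had a log2 fold change of -0.38 ± 0.13 and EMCN one of 0.93 ± 0.46, neither past the threshold. EMCN passed the count filter only through the Wei libraries, which favours a higher level there. Red cell markers (3 of 5 with a row) summed to 9.25 to 15.6 CPM in Wei and 8.74 to 16.1 CPM in Yorkshire. The part that any of these cell types takes in the levels of the interferon-stimulated genes was not tested. The sex of the source cannot be told apart from the rest of Wei replicate 2, the only library with Y chromosome counts at that level.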

How the data were processed

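The authors deposited 1 table with raw read counts and FPKM values per Ensembl gene and library, per the file headers. The build is Sscrofa10.2, and the tools listed without role or order are TopHat2 2.0.9, CASAVA 1.7 and edgeR, per the submitters' processing notes. Coordinates are in that build, counted from 1. Per the labels' protocols, TRIZOL RNA was made into TruSeq libraries. Which counter, annotation and strand setting were used is not given in the sources used here. Libraries were grouped by breed label. Every pair of libraries differed beyond counting error (lowest chi-square statistic 26.3 for each degree of freedom).

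Genes passing filterByExpr at a minimum count of 10 were normalised by TMM. The test was edgeR's quasi-likelihood F test (version 4.0.16, R 4.3.3) with breed as the only term. P-values were adjusted by Benjamini-Hochberg over the 13209 genes, with 0.05 as the threshold. A fold change sets Wei over Yorkshire, and its SE is the unshrunken absolute log2 value divided by the root of F. List means use log2 CPM with a prior count of 2. The deposited FPKM served only to compare levels between genes. DESeq2 1.42.0, limma voom (3.58.1), other scalings and filters, a replicate block and leaving out libraries were alternatives. The fit was tested on simulated data.

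The genes and lists were chosen with earlier results of these data known. The rule for giving values in every library took genes with an unadjusted p under 0.05, the 2 of highest FPKM in each role, the 4 of widest range and, by counts, those that missed the filter. From the other lists it took called genes, or else the 2 of smallest p; some of these are not reported here. IRF9, IFIT2, MX1 and RSAD2 and the genes given as ranges fall outside it and were added after their values were seen.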

Additional observations from a re-analysis of the deposited data

Results flagged for a closer look

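In Wei replicate 2 the Y chromosome rows, outside every comparison, summed to 6901 counts. The same rows held 9 and 14 counts in Wei replicates 1 and 3, against 8 to 10 counts in the Yorkshire libraries. Wei replicate 2 was also the lowest library for 23 of the 32 interferon-stimulated genes, and a relation between these facts was not tested.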

How the results depend on the processing

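None of the 32 genes passed the edgeR threshold with RLE size factors, library size alone, a 1 CPM filter or limma voom, nor without Wei replicate 2 and Yorkshire replicate 3 together. DESeq2 called 3 genes, and 1 passed without a count filter; leaving out 1 library gave 0 to 1, the 1 being OAS1 without Wei replicate 1. Over all genes, DESeq2 called 1291 and the fit without Wei replicate 2 and Yorkshire replicate 3 called 146, against 671, and leaving out 1 library gave 60 to 394, with fewer libraries in each fit. The replicate block called 1 of the 32 genes, HERC6 (adjusted p = 0.0376), and 477 genes in all. For numbers 1 to 3, the correlation between a Wei and a Yorkshire library's deviations from the breed means was 0.14, -0.0066 and 0.022. Not every library correlated best with its own number. With 3 libraries a breed, whose deviations from their own mean depend on each other, these values cannot settle whether the numbers mark pairs. Adding the row of PARP9 found by gene ID left the median at -0.54 and the calls at 0.

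Directions turned in 27 fits of 12 genes, none of them called. Without Wei replicate 2 and Yorkshire replicate 3, log2 fold changes of the opposite sign were 0.015 (MX1), 0.87 (EIF2AK2), 0.10 (RSAD2), 0.087 (CMPK2), 0.27 (IRF1), 0.14 (HERC5), 0.78 (DTX3L), 0.17 (IFI35) and 0.31 (XAF1). Without Yorkshire replicate 3 they were 0.66 (EIF2AK2), 0.016 (IRF1), -0.069 (ISG15) and 0.53 (DTX3L). Without Wei replicate 2 they were 0.16 (EIF2AK2), 0.13 (DTX3L) and 0.18 (XAF1), and without Yorkshire replicate 1 they were -0.13 (IFIT2), -0.031 (OAS2) and 0.13 (XAF1). OAS2 also turned without Wei replicate 1 (-1.91), without Yorkshire replicate 2 (-0.18), with the replicate block (-0.61) and in limma voom (-0.65), EIF2AK2 with the block (0.081) and in limma voom (0.083), ISG15 without Wei replicate 3 (-0.0073) and IFIT2 with library size alone (-0.0033). Over all fits that leave out libraries, log2 fold changes reached -0.75 (MX1), -0.39 (EIF2AK2), -0.83 (RSAD2), -1.18 (CMPK2), -1.11 (IRF1), -0.93 (HERC5), -0.50 (DTX3L), -0.78 (IFI35) and -0.67 (XAF1) at the low end, and 1.42 (OAS2), 1.03 (ISG15) and 0.17 (IFIT2) at the high end. The cause was not tested. The planned search for a promoter motif was not run, since no promoter sequence was used here.

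The members are of low abundance, with 138 to 4470 counts over the 6 libraries among those tested, which limits precision, as do 3 libraries a breed.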

Other observations

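PARP9 had no row under its symbol, but the name table gives that symbol to a row without one (ENSSSCG00000027709, chromosome 13, 147586921 to 147621804), next to DTX3L. It stood at 5.03, 3.25 and 3.57 CPM in Wei replicates 1 to 3, against 4.38, 3.48 and 9.80 CPM in Yorkshire replicates 1 to 3, with a log2 fold change of -0.59 ± 0.39 (adjusted p = 0.399, edgeR's quasi-likelihood test). The row of EIF2AK2 that was not kept had 29, 3 and 17 counts in Wei replicates, against 14, 15 and 37 counts in Yorkshire replicates.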
